A study of Mus musculus with 6 samples.

Results

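The 64 mouse miRNAs examined here were annotated late and were chosen by name alone, as all mouse assays of the card set with numbers from miR-1893 to miR-1982, whatever their letter or strand. They make up 64 of the 596 mouse miRNA assays measured in the aorta. MiRNAs are numbered in the order of their discovery. A miRNA is cut from a hairpin precursor by Dicer, loaded into the silencing complex, and finds its target mRNAs mainly through the seed, bases 2 to 8 of the mature strand. Numbers this high were given to small RNAs found by sequencing, after the abundant and conserved families had been named. Most of them are rodent-specific and of low abundance, and some such entries were later recognised as fragments of other RNAs.

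The study asked how loss of Dicer in endothelial cells (ECs) changes the miRNAs of the atherosclerotic aorta. EC-Dicerflox mice (VE-Cadherin-CreERT2 Dicer1flox/flox Apoe-/-, n = 3) were compared with EC-DicerWT littermates (VE-Cadherin-CreERT2 Dicer1WT/WT Apoe-/-, n = 3). Both genotypes thus lacked apolipoprotein E, carried the Cre recombinase under the VE-Cadherin promoter and received tamoxifen (TMX) on 5 days, at 2 mg for each 20 g of weight. At 6 to 8 weeks of age they began 4 weeks on a high-fat diet (HFD), in which crude fat made up 21%, casein 19.5% and cholesterol 0.15%. RNA came from the whole aorta, which holds other cells beside ECs, so that fewer ECs and less of a miRNA per EC cannot be told apart. The paper reports that Dicer mRNA was lower in the whole aorta of EC-Dicerflox mice and unaffected in their myeloid cells. Whether the other cells of the aortic wall kept Dicer was not tested here. MiR-145 and miR-143 of smooth muscle had CT values of 14.7 to 15.0 and 16.9 to 18.1, and miR-126-3p of ECs had 17.1 to 19.1. MiR-126-5p of ECs had 20.3 to 23.0. Of leukocytes, miR-150 had 19.0 to 22.0, miR-223 20.8 to 21.4, miR-142-3p 21.8 to 24.2 and miR-142-5p 28.04 to 30.65. Erythroid miR-451 had 20.4 to 23.6. Of striated muscle, miR-133a had 18.4 to 20.2, miR-133b 22.2 to 23.4 and miR-1 22.9 to 24.8. MiR-208 was seen in 3 aortas and miR-499 in none. Dicer1 mRNA is not an assay of these cards.

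The measure is the CT, the PCR cycle at which the signal of an assay crosses a threshold. A higher CT means less RNA, each cycle stands for a doubling where amplification is complete, and a well that gave no signal is listed at 40. All 64 assays had the number style of the second of 2 cards, which held 261 mouse assays in all. EC-Dicerflox replicate 3 stood apart from the other aortas: on the second card its U6 had a CT of 17.1, against 15.9 to 16.2 in the others, and its snoRNA135 a CT of 23.5, against 21.0 to 22.7. The log2 fold changes and tests of genotype below therefore used the delta CT, the CT minus the mean of U6 and snoRNA135 of both cards in the same aorta, while CT values by aorta and counts of members seen are as deposited.

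Of the 64 assays, 55 had a gene of their number in RefSeq (GRCm38.p6), and 36 had a mature sequence of exactly their name in RefSeq. The others were miR-1935, miR-1937b, miR-1937c, miR-1939, miR-1940, miR-1944, miR-1957, miR-1959 and miR-1965, which had no gene of that number. The genes of 46 assays overlapped another gene on either strand. Counted by gene, this was 80.4% of 51 genes, and 77.1% of the 1142 other miRNA genes. The sequences below, from RefSeq GRCm38.p6, belong to miRNAs named below for low p-values or for groups that did not overlap, to a pair of strands seen unequally, and to miRNAs seen in every aorta. Capitals mark the seed.
miR-1903: cCUUCUUCuucuuccugagaca
miR-1904: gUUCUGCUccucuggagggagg
miR-1905: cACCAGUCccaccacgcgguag
miR-1954: aCUGCAGAgugagacccuguu
miR-1938: cGGUGGGAcuuguaguucgguc
miR-1897-3p: uCAACUCGuucuguccggugag
miR-1894-3p: gCAAGGGAgagggugaagggag
miR-1894-5p: cUCUCCCCuaccaccugccucu
miR-1941-3p: cAUCUUAGcaguaucucccau
miR-1951: gUAGUGGAgacugguguggcua
Their 10 seeds all differ. The gene of miR-1903 overlaps Nrp1, which encodes neuropilin-1, a co-receptor for VEGF on ECs. The gene of miR-1904 overlaps Pde4d, which encodes a cAMP phosphodiesterase, and that of miR-1905 overlaps Mex3a, which encodes an RNA-binding protein. The gene of miR-1954 overlaps Eng, which encodes endoglin, a co-receptor for ligands of the TGF-β family on ECs.

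Of the 36 mature sequences, 5 shared their seed with another mature miRNA of the table (13.9%), against 463 of the 1643 other sequences (28.2%). MiR-1961 and miR-1928 are shown beside the abundant miRNAs whose seed they have.
miR-1961: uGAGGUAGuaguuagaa
let-7g-5p: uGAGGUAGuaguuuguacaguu
let-7i-5p: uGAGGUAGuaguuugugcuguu
miR-1928: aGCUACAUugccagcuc
miR-221-3p: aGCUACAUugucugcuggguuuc
miR-222-3p: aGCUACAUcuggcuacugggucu
Both members are 17 bases long. MiR-1961 shares its first 13 bases with let-7g-5p and let-7i-5p, of the let-7 family, and miR-1928 shares its first 10 with miR-221-3p and its first 8 with miR-222-3p. MiR-1961 had CT values of 37.1, 34.9 and 34.3 in EC-Dicerflox replicates 1, 2 and 3, and of 34.0, 36.1 and 33.6 in EC-DicerWT replicates 1, 2 and 3. It was thus late in every aorta, 12.9 ± 1.54 cycles (SD, n = 6) above the let-7g assay, which had CT values of 21.4 to 22.9. MiR-1928 had CT values of 32.0, 31.9 and 32.8 in EC-Dicerflox and of 32.4, 32.5 and 31.5 in EC-DicerWT aortas, 7.15 ± 0.689 cycles (SD, n = 6) above the miR-221 assay. How far either assay detects its seed relatives was not tested.

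The 64 miRNAs divided into 28 that were seen in every aorta, 15 that were seen in 1 to 5 aortas and 21 that were seen in none. A CT under 40 in at least 1 aorta was thus found for 43 of 64 (67.2%), for 418 of the 532 other mouse miRNAs (78.6%) and for 132 of the 197 other miRNAs of the same card (67.0%). Per aorta, 35, 35 and 32 members were under 40 in EC-Dicerflox and 32, 31 and 32 in EC-DicerWT mice. The share of members minus that of all others averaged -18.0 percentage points (-21.3 to -14.5) and was negative in 6 of 6 aortas. Against the others of the same card the difference averaged -5.72 points (-8.92 to -1.27), negative again in 6 of 6 aortas, so that the gap was smaller where the card was the same.

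**Figure D1:**
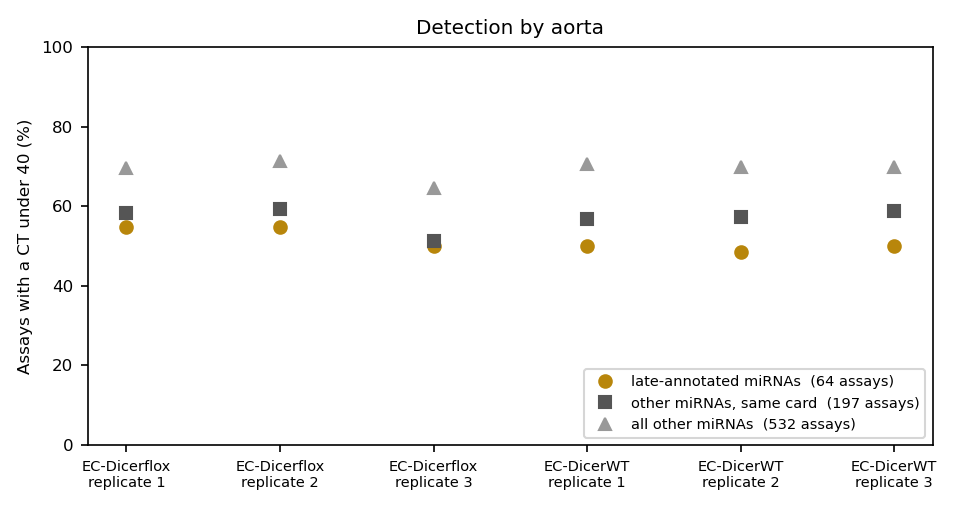
Share of assays with a CT under 40 (y axis, percent) in each of the 6 aortas (x axis), for the 64 late-annotated miRNAs (circles), the 197 other miRNAs of the same card (squares) and all 532 other miRNAs (triangles). The circles lie at 48.4% to 54.7% and are below the squares and the triangles in every aorta, nearest to the squares in EC-Dicerflox replicate 3.

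Members that were seen in every aorta also had late signals. Their median CT was 30.5, 30.2 and 32.6 in EC-Dicerflox and 30.2, 30.8 and 30.9 in EC-DicerWT aortas. In each aorta this was above the median of the 322 other miRNAs seen in every aorta, by 4.04 cycles on average (3.75 to 4.64), and above that of the 93 others of the same card by 2.49 cycles (1.81 to 3.28). Of the wells of members with a signal, 31 of 197 (15.7%) were above a CT of 35, against 7.69% of the wells of all others and 12.9% of those of the same card. The order against the same card held in each EC-Dicerflox aorta. In EC-DicerWT mice it turned in replicates 1 (6.25% against 8.93%) and 3 (9.38% against 20.7%), but not in replicate 2 (19.4% against 12.4%). The pooled shares of each genotype are given below. The spread among aortas of a genotype was wider at higher CT. The median SD was 1.10 cycles for the 28 members and 0.916 for the 322 others. At a mean CT of 30 or more it was 1.30 for 19 members and 1.44 for 70 others, while at a mean CT of 25 to 30 it was 1.07 for 7 members and 0.881 for 128 others, and under 25 it was 0.384 for 2 members and 0.815 for 124 others.

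**Figure D2:**
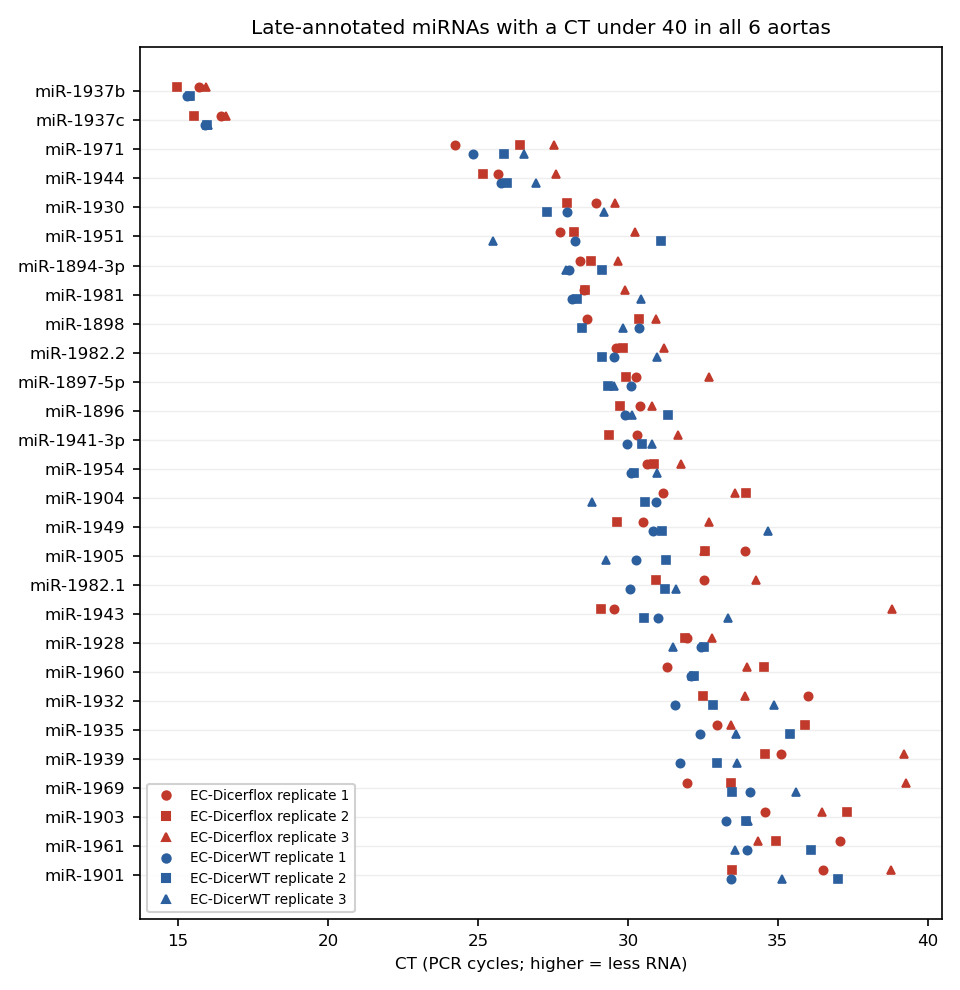
CT (x axis, cycles) of the 28 late-annotated miRNAs seen in all 6 aortas (y axis, ordered by mean CT), with EC-Dicerflox in red and EC-DicerWT in blue and the replicate number by shape. MiR-1937b and miR-1937c stand alone near a CT of 16, miR-1971 and miR-1944 follow near 26, and the other 24 have mean CT values from 28.5 upward.

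MiR-1937b and miR-1937c were the exceptions to the late signals. MiR-1937b had CT values of 15.7, 14.9 and 15.9 in EC-Dicerflox replicates 1, 2 and 3, and of 15.3, 15.4 and 15.4 in EC-DicerWT replicates 1, 2 and 3. MiR-1937c had values of 16.4, 15.5 and 16.6 in EC-Dicerflox and of 15.9, 16.0 and 16.0 in EC-DicerWT aortas. The genotypes overlapped in both, and the EC-Dicerflox aortas were the more scattered. By mean CT, miR-1937b was the third of all 596 mouse assays, after miR-145 and miR-2134, and miR-1937c was the fifth. CT values of different assays also depend on how well each assay amplifies, so that this is an order of signals and not of RNA amounts. The CT of miR-1937b minus that of U6, the spliceosomal RNA used as a control, was -0.767 ± 0.349 cycles (SD, n = 6) on the same card. The differences of miR-1937c from miR-1937b were 0.738, 0.584 and 0.662 cycles in EC-Dicerflox and 0.603, 0.567 and 0.652 cycles in EC-DicerWT aortas. These assays kept a nearly fixed distance, with an SD of 0.063 cycles over the 6 aortas, against SDs of 0.338 and 0.383 for the CT of each.

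The log2 fold change of miR-1937b was -0.022 (95% confidence interval -1.06 to 1.01, limma), so that the arrays leave room for a change of about 1 cycle in either direction. The sign turned with U6 alone (0.061), with the controls of the same card (0.033), with the mean over all miRNAs as the reference (0.0033) and without EC-Dicerflox replicate 1 (0.26) or EC-DicerWT replicate 3 (0.22). MiR-1944 had CT values of 25.7, 25.2 and 27.6 in EC-Dicerflox and of 25.8, 26.0 and 26.9 in EC-DicerWT aortas, and a log2 fold change of 0.23 (95% confidence interval -0.60 to 1.06). The latter was 0.068 to 0.31 with other controls, filters or models, and 0.029 to 0.48 without a single aorta. MiR-1971 had CT values of 24.2, 26.4 and 27.5 in EC-Dicerflox and of 24.8, 25.9 and 26.5 in EC-DicerWT aortas. In both, replicate 3 had the highest CT of its genotype, and the genotypes overlapped.

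MiR-1930 and miR-1951 complete the 6 members with the lowest mean CT. The gene of miR-1930 overlaps Ube2g2, which encodes a ubiquitin-conjugating enzyme of the endoplasmic reticulum. MiR-1930 had CT values of 28.9, 28.0 and 29.6 in EC-Dicerflox and of 28.0, 27.3 and 29.2 in EC-DicerWT aortas. MiR-1951 had CT values of 27.7, 28.2 and 30.2 in EC-Dicerflox and of 28.2, 31.1 and 25.5 in EC-DicerWT aortas, a range of 5.61 cycles that was reached within the control mice alone. MiR-1894-3p (27.9 to 29.7), miR-1981 (28.1 to 30.5), miR-1898 (28.5 to 30.9) and miR-1982.2 (29.1 to 31.2) stayed within narrower ranges of CT. So did miR-1897-5p (29.3 to 32.7), miR-1896 (29.7 to 31.3) and miR-1941-3p (29.4 to 31.7). MiR-1949 ranged from 29.6 to 34.7, miR-1960 from 31.3 to 34.5, miR-1932 from 31.6 to 36.0, miR-1935 from 32.4 to 35.9 and miR-1901 from 33.5 to 38.8. Of the members seen in every aorta, miR-1943 and miR-1969 were the most scattered in EC-Dicerflox mice. MiR-1943 had CT values of 29.5, 29.1 and 38.8 and miR-1969 of 32.0, 33.4 and 39.3, in each case with replicate 3 far above the others.

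Strands of a hairpin were seen unequally. MiR-1894-3p was seen in all 6 aortas and miR-1894-5p in 2, with CT values of 39.6 in EC-Dicerflox replicate 1 and 36.6 in EC-DicerWT replicate 1. Their gene overlaps Ppp1r10, which encodes a regulatory subunit of protein phosphatase 1. MiR-1897-5p was seen in all 6 aortas and miR-1897-3p in 2. MiR-1941-3p was seen in all 6 aortas and miR-1941-5p in 4, with CT values of 31.7 to 32.5 where it was seen and no signal in EC-Dicerflox replicate 1 and EC-DicerWT replicate 2. Neither strand of miR-1933 was seen in any aorta. MiR-1982.1 and miR-1982.2, whose gene overlaps Oaz1, an inhibitor of polyamine synthesis, were both seen in all 6 aortas. MiR-1982.1 had CT values of 32.5, 31.0 and 34.3 in EC-Dicerflox and of 30.1, 31.3 and 31.6 in EC-DicerWT aortas, above miR-1982.2 in each.

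The 15 members with a signal in some aortas had CT values from 31.5 to 39.8 where they were seen, and 8 of them were seen in 1 genotype only. MiR-1897-3p, miR-1927, miR-1938, miR-1940, miR-1942, miR-1947 and miR-1964 were seen in EC-Dicerflox aortas only, and miR-1931 in an EC-DicerWT aorta only. This is 16.3% and 2.33% of the 43 members seen, against 3.35% and 4.07% of the 418 others and 5.30% and 6.06% of the 132 others of the same card. Of the 7, miR-1938 and miR-1897-3p were seen in 2 EC-Dicerflox aortas and the other 5 in 1. MiR-1938, whose gene overlaps Ifrd1, had no signal in EC-Dicerflox replicate 1, CT values of 34.4 and 36.1 in replicates 2 and 3, and no signal in the 3 EC-DicerWT aortas. MiR-1897-3p, whose gene overlaps the noncoding Sox2ot, had CT values of 32.4 and 39.0 in EC-Dicerflox replicates 1 and 2 and none elsewhere. MiR-1947 was seen at 33.4 and miR-1942 at 36.2, both in EC-Dicerflox replicate 2. MiR-1927, miR-1940 and miR-1964 were seen at 39.2, 39.8 and 38.6, and the plant miRNA that serves as a negative control was seen at 39.6 in 1 of its 12 wells. Without EC-Dicerflox replicate 1 the counts were 5 in EC-Dicerflox and 4 in EC-DicerWT aortas only, and without EC-DicerWT replicate 3 they were 7 and 0. Without EC-DicerWT replicate 1 or 2 they were 9 and 1. With a limit of 35 they were 5 and 1, or 13.9% and 2.78% of 36 members. The others of the same card were then at 6.19% and 3.54%, and all others at 3.37% and 5.18%. The names changed with that limit. MiR-1897-3p, miR-1938, miR-1947, miR-1948 and miR-1953 were then seen in EC-Dicerflox only, and miR-1959 in EC-DicerWT only. Of these, miR-1948, miR-1953 and miR-1959 were under 40 in both genotypes. The shares of the others moved with the aorta left out as well, to 2.65% and 6.51% without EC-Dicerflox replicate 1 and to 5.78% and 3.37% without EC-DicerWT replicate 3. Those of the same card moved to 3.85% and 8.46%, and to 10% and 4.62%, respectively. The shares of the members were 12.2% and 9.76%, and 16.7% and 0%.

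**Figure D3:**
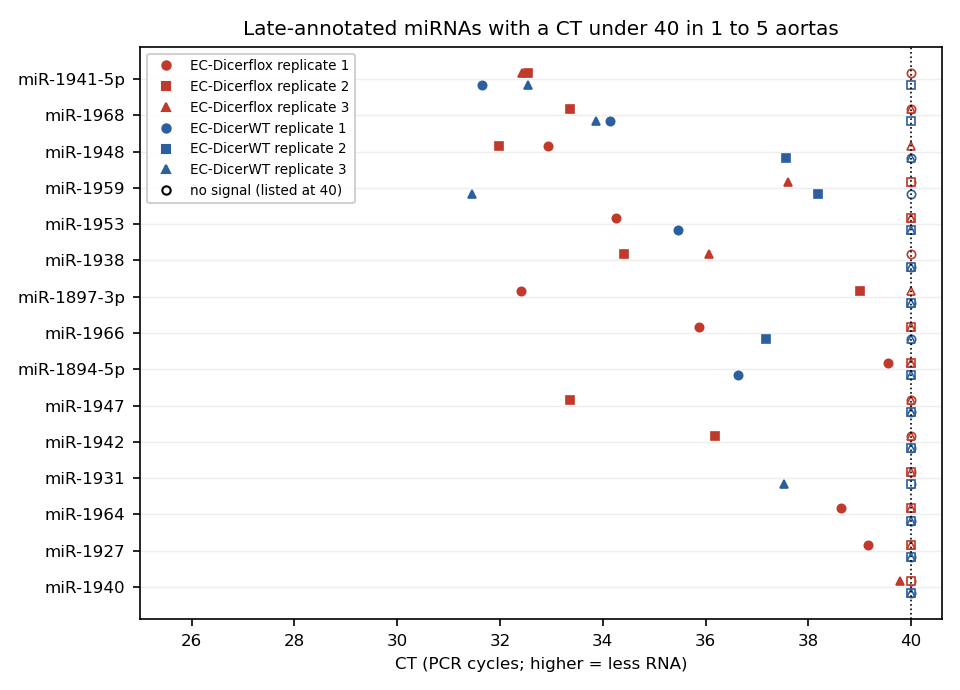
CT (x axis, cycles) of the 15 late-annotated miRNAs seen in 1 to 5 aortas (y axis), with EC-Dicerflox in red and EC-DicerWT in blue, the replicate number by shape, and open symbols at the dotted line for wells without a signal. The rows of miR-1938, miR-1897-3p, miR-1947, miR-1942, miR-1964, miR-1927 and miR-1940 hold filled symbols of EC-Dicerflox only.

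The members under 40 per aorta averaged 34.0 ± 1.73 (SD, n = 3) in EC-Dicerflox and 31.7 ± 0.577 (SD, n = 3) in EC-DicerWT mice. The groups met at 32. The other miRNAs under 40 numbered 370, 380 and 343 in EC-Dicerflox and 375, 371 and 372 in EC-DicerWT aortas, and the shares of those of the same card were 58.4%, 59.4% and 51.3% against 56.9%, 57.4% and 58.9%, so that neither set had the higher counts of EC-Dicerflox throughout. With a limit of 35 the difference turned, to 27.3 ± 3.51 and 28.0 ± 2.65 (SD, n = 3). Of the members' wells with a signal, 20 of 102 (19.6%) were above 35 in EC-Dicerflox and 11 of 95 (11.6%) in EC-DicerWT aortas. The shares were 7.59% and 7.78% for all others and 11.7% and 14.1% for the others of the same card. Another 7 members with a partial signal were seen in both genotypes, miR-1894-5p and miR-1941-5p among them. MiR-1948 was seen at 32.9 and 32.0 in EC-Dicerflox replicates 1 and 2 and at 37.6 in EC-DicerWT replicate 2. MiR-1959 was seen at 37.6 in EC-Dicerflox replicate 3 and at 38.2 and 31.5 in EC-DicerWT replicates 2 and 3. MiR-1968 was seen once in EC-Dicerflox and in 2 EC-DicerWT aortas, at 33.4 to 34.1, and miR-1953 and miR-1966 once in each genotype.

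In the comparison of genotypes, 0 of the 43 members tested had an adjusted p-value under 0.05, and 0% of all 461 miRNAs tested did (limma with Benjamini-Hochberg adjustment over the 461). The smallest adjusted p-value among members was 0.923. At an unadjusted limma p-value under 0.05, 3 members were lower in EC-Dicerflox mice and none was higher, or 6.98% of the 43, against 3.04% of all miRNAs tested in either direction, 1.95% lower and 1.08% higher. Without the moderation of limma, a linear model gave 2 such members (4.65%), miR-1939 and miR-1954, against 5.21% of all miRNAs. Without EC-Dicerflox replicate 1, in which it had no signal, miR-1938 had an adjusted limma p-value of 0.0478, 1 of 2 miRNAs under 0.05 among 456 in that fit, and rested on EC-DicerWT wells all listed at 40. There 5 members were under an unadjusted 0.05, among 22 miRNAs in all. Without EC-DicerWT replicate 3 only miR-1939 was under it. MiR-1982.1, at an unadjusted limma p-value of 0.0514, was under 0.05 in 9 of the 13 alternatives.

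MiR-1939, miR-1903 and miR-1905 were the 3 members under an unadjusted limma p-value of 0.05. MiR-1939 had CT values of 35.1, 34.6 and 39.2 in EC-Dicerflox and of 31.7, 33.0 and 33.6 in EC-DicerWT aortas, and the groups did not overlap. The delta CT of miR-1939 was 17.0 ± 1.72 cycles (SD, n = 3) in EC-Dicerflox and 13.7 ± 0.633 cycles (SD, n = 3) in EC-DicerWT mice, a log2 fold change of -3.36 (95% confidence interval -5.74 to -0.99). Its unadjusted limma p-value was 0.0144 (0.1 in a two-sided exact permutation test, the smallest that 3 samples against 3 can give). It stayed under 0.05 in the 12 alternatives that tested it and in the 6 fits without a single aorta, and the log2 fold change ranged from -3.95 to -1.92 over them, with -1.92 where CT values above 35 were set to 35.

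MiR-1903 had CT values of 34.6, 37.3 and 36.5 in EC-Dicerflox and of 33.3, 34.0 and 34.0 in EC-DicerWT aortas, all late signals whose groups did not overlap. Its delta CT was 16.8 ± 1.55 and 14.6 ± 0.328 cycles (SD, n = 3), respectively. The log2 fold change was -2.22 (95% confidence interval -4.30 to -0.14), with an unadjusted limma p-value of 0.0406 (0.1 in a two-sided exact permutation test). The p-value of miR-1903 lay above 0.05 in 6 of 12 alternatives, among them CT values above 35 set to 35, with a log2 fold change of -0.96 (0.0819). Without EC-Dicerflox replicate 2 the log2 fold change was -1.34. It was also above 0.05 without EC-Dicerflox replicate 3 (0.0545) and without EC-DicerWT replicate 1 (0.0989), 2 (0.0708) or 3 (0.102), by limma.

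MiR-1905 had CT values of 33.9, 32.6 and 32.5 in EC-Dicerflox and of 30.3, 31.3 and 29.3 in EC-DicerWT aortas. Every EC-Dicerflox CT was above every EC-DicerWT CT, while the delta CT of EC-Dicerflox replicate 3 and EC-DicerWT replicate 2 crossed at 12.3. The log2 fold change was -2.58 (95% confidence interval -5.06 to -0.095), with an unadjusted limma p-value of 0.0443 (0.2 in a two-sided exact permutation test). It lay above 0.05 in 4 of 13 alternatives, and without EC-Dicerflox replicate 1 (0.120) or 2 (0.102) and without EC-DicerWT replicate 1 (0.0821) or 3 (0.113), by limma.

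The delta CT of the genotypes did not overlap for 5 of the 43 members (11.6%), against 10.4% of the 461 miRNAs tested. How near these shares lie depended on the reference. They were 11.6% and 6.51% with U6 alone, 16.3% and 7.81% with snoRNA135 alone, and 16.3% and 9.76% with snoRNA202 alone. With the controls of the same card they were 9.30% and 8.68%. With the median over all miRNAs they were 11.6% and 10.6%, and with the mean 6.98% and 10.6%. The lower members were 4 (9.3%, background 4.34%) and the higher 1 (2.33%, background 6.07%). Beside miR-1939 and miR-1903 these were miR-1904 and miR-1954, lower in EC-Dicerflox mice, and miR-1897-3p, higher. The separation of miR-1897-3p is not a measured one: it had no signal in EC-DicerWT mice nor in EC-Dicerflox replicate 3, and these wells listed at 40 differ only by the controls subtracted. Where no separation was counted with wells at 40 in both genotypes, a choice made after seeing the data, 4 members (9.30%) were left, all lower, against 10.2% of all miRNAs. MiR-1904 had CT values of 31.2, 34.0 and 33.6 in EC-Dicerflox and of 30.9, 30.6 and 28.8 in EC-DicerWT aortas, and EC-Dicerflox replicate 1 nearly met the controls. Its log2 fold change was -2.64 (95% confidence interval -5.44 to 0.16) with an unadjusted limma p-value of 0.0600. The p-value was under 0.05 in 5 of 13 alternatives (0.0371 to 0.0472) and without EC-Dicerflox replicate 1 (0.0413, log2 fold change -3.32), while the log2 fold change was -1.75 without EC-DicerWT replicate 3. MiR-1954 had CT values of 30.6, 30.9 and 31.8 in EC-Dicerflox and of 30.1, 30.2 and 31.0 in EC-DicerWT aortas, the smallest difference of these miRNAs. Its delta CT was 11.8 ± 0.302 and 11.3 ± 0.0559 cycles (SD, n = 3), and its log2 fold change -0.52 (95% confidence interval -1.18 to 0.15) with an unadjusted limma p-value of 0.103, and 0.0432 with the ordinary model. Of the higher members the smallest unadjusted limma p-values were 0.0676 for miR-1948, 0.0850 for miR-1938 and 0.173 for miR-1897-3p, all with wells at the limit. The log2 fold change of miR-1948 was 4.37 (95% confidence interval -0.45 to 9.20) with the limit at 40. It was 1.85 with CT values above 35 set to 35 (unadjusted limma p-value 0.00781) and 6.41 without EC-Dicerflox replicate 3 (unadjusted limma p-value 0.00142, adjusted 0.325), so that a higher member was under an unadjusted 0.05 in those settings.

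**Figure D4:**
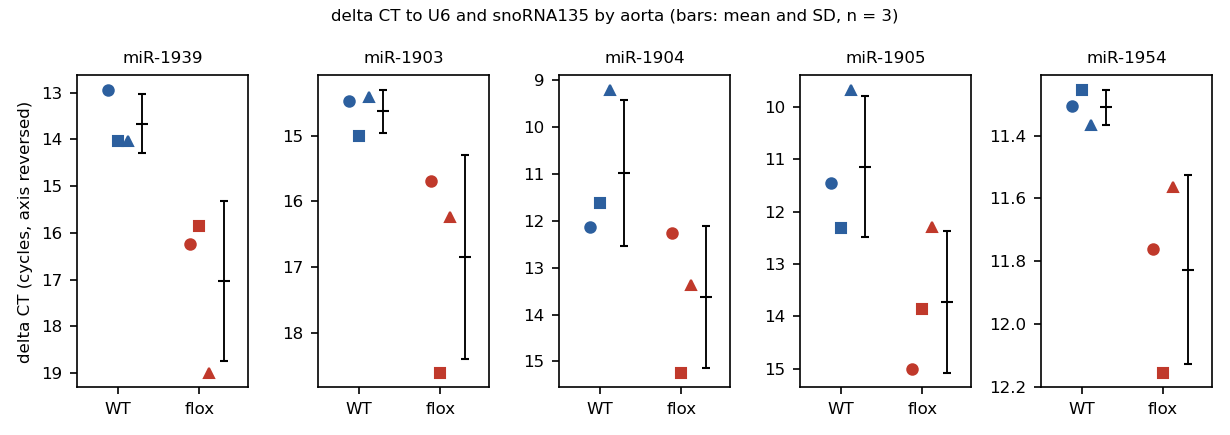
Delta CT (y axis, cycles, reversed so that more RNA is higher, a separate scale in each panel) of miR-1939, miR-1903, miR-1904, miR-1905 and miR-1954 in EC-DicerWT (WT) and EC-Dicerflox (flox) aortas, with symbols by replicate number as circle (1), square (2) and triangle (3) and bars for mean and SD (n = 3). The groups are apart in all panels but that of miR-1905, where they cross near 12.3 cycles.

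Among the 28 members seen in every aorta, the estimates of 22 (78.6%) were lower and of 6 higher in EC-Dicerflox mice, with a median log2 fold change of -0.39. Among the 322 other miRNAs seen in every aorta, 131 (40.7%) were lower, with a median of 0.14, and among the 93 others of the same card 49 (52.7%) were lower, with a median of -0.022. Among the 15 members seen in 1 to 5 aortas the direction turned: 5 (33.3%) were lower and 10 higher, with a median of 0.55. Of the 96 other miRNAs seen in 1 to 5 aortas, 54.2% were lower, with a median of -0.18. These estimates include wells listed at 40. Over all 43 members tested, 27 (62.8%) were lower, against 43.8% of the 418 others. All of these estimates rest on the same 6 aortas, and no p-value is given for them as a set. Among the 28 members seen in every aorta, lower estimates outnumbered higher ones under each scaling tried. With U6 alone 20 of 28 were lower, when the median of the 322 others was 0.22. With snoRNA202 alone 25 of 28 were lower, when it was -0.022. Without EC-Dicerflox replicate 1, 18 of 28 were lower (median -0.54), against 40.1% of the 322 others (median 0.12). Without EC-DicerWT replicate 3, 18 of 28 were lower (median -0.43), against 46.6% of the others (median 0.021). With EC-Dicerflox replicate 2 left out, 20 of 28 were lower (median -0.25), against 47.8% of the others (median 0.021).

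**Figure D5:**
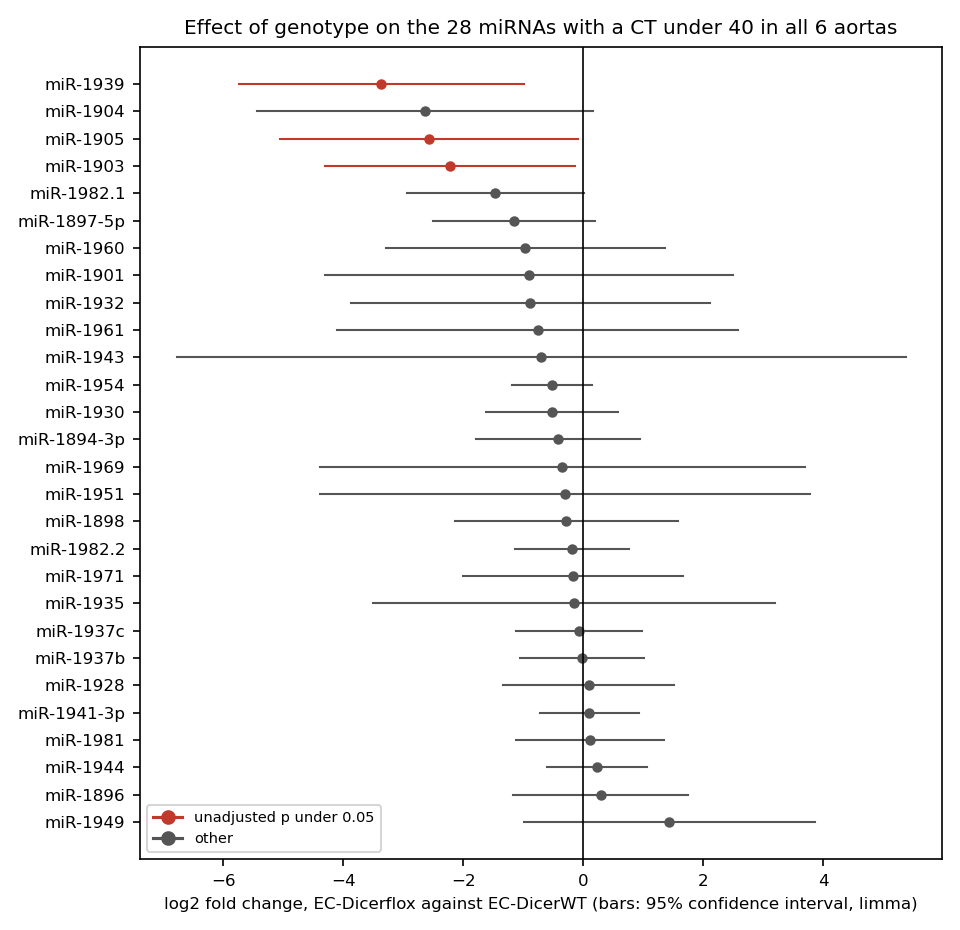
Log2 fold change of EC-Dicerflox against EC-DicerWT (x axis, points) with the 95% confidence interval of limma (bars) for the 28 late-annotated miRNAs seen in all 6 aortas (y axis), in red where the unadjusted p-value is under 0.05. The estimates run from -3.36 for miR-1939 to 1.43 for miR-1949, and 25 of the 28 intervals include 0.

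Members without a signal in any aorta were miR-1893, miR-1899, miR-1900, miR-1902, miR-1906, miR-1933-3p, miR-1933-5p, miR-1934, miR-1936, miR-1945, miR-1946a, miR-1950, miR-1952, miR-1956, miR-1957, miR-1958, miR-1962, miR-1963, miR-1965, miR-1967 and miR-1970. A CT of 40 says only that no signal was detectable after pre-amplification on these cards. The base composition of the mature strands did not set them apart in an obvious way. The median share of G and C was 56.5% for the 16 with a sequence among the unseen members and 54.5% for the 14 among those seen in every aorta.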

How the data were processed

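Total RNA of 6 aortas was copied with rodent Megaplex primer pools, pre-amplified and measured by the authors on TaqMan Array MicroRNA Cards. The deposited values are CT values on a log2 scale that runs downward, not normalized, 1 column per mouse. Threshold and baseline settings are not given in the sources used here. Columns were assigned by their names, with 0 left over. The labels give the mice as male and the paper as female. The number of arrays, 3 per group, limits the precision.

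The card of an assay was read from the length of its number. Minus delta CT was fitted by genotype with limma 3.58.1 (R 4.3.3) for the 461 miRNAs seen (CT under 40) in 1 or more aortas, with Benjamini-Hochberg adjustment, and single miRNAs by exact permutation of the 6 aortas (20 arrangements) in SciPy 1.17.1. The fit was tried on simulated CT values with independent noise for each assay, constant controls and no well at 40. That trial cannot tell how the fit handles shifts shared within an aorta, noise of the controls or wells without a signal. No p-value is given for a score over the members. The members, lists and tests were chosen with earlier results of these data known. Named were members seen in all aortas or in 1 genotype, the 3 lowest p-values in each direction, and members whose groups did not overlap. Members that share a hairpin or number were set side by side. The rest were named so that every member is accounted for by the aortas in which it was seen.

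The deviations of equally numbered aortas from their group means, over 350 miRNAs, had correlations of 0.150, 0.224 and 0.431, each above the 0.1 set for pairing, a sign from the data only. The pattern is not particular to equal numbers, since EC-Dicerflox replicate 1 correlated more with EC-DicerWT replicate 2 (0.285). The alternatives were other CT limits, control RNAs, filters, moderation, a replicate block and leaving out each aorta. Sequences and gene names are from RefSeq.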

Additional observations from a re-analysis of the deposited data

How the results depend on the processing

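The 3 members under an unadjusted limma p-value of 0.05 became 5 with CT values above 35 set to 35 (15 of all 461) and 5 with miRNAs under 40 in all aortas only (15 of all 350), and 1 to 5 when a single aorta was left out (12 to 22 of all miRNAs). Members under an adjusted 0.05 stayed at 0 in the 13 alternatives and were 0 to 1 without a single aorta, the latter without EC-Dicerflox replicate 1. The 5 members whose groups did not overlap became 2 with miRNAs under 35 in all aortas only (10% of members, 12.6% of all) and 3 with the mean over all miRNAs as the reference (6.98% and 10.6%), but were again 5 with their median, and were 7 with snoRNA135 alone (16.3% and 7.81%) and with snoRNA202 alone (16.3% and 9.76%). They were 6 to 10 without a single aorta (14.0% to 24.4%), where 17.5% to 23.8% of all miRNAs did not overlap. The median log2 fold change of the members tested, -0.18, ranged from -0.39 to 0.036 over the alternatives, the latter with CT values above 35 set to 35. It ranged from -0.48 to 0.039 without a single aorta, the lowest without EC-Dicerflox replicate 1 and above 0 without EC-DicerWT replicate 3. With miRNAs under 35 in all aortas only, 14 of the 20 members left were lower. With the replicate number as a block (paired), 3 members were again under 0.05, and the block changed no call of the members named.

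The shortfall in detection of -18.0 percentage points was -20.7 with a limit of 35, -19.5 with a limit of 37 and -5.72 against the same card. The difference in CT level, 4.04 cycles, was 2.49 cycles against the same card. The difference between the genotypes in members seen, 2.33, became -0.667 with a limit of 35 and -0.333 with a limit of 37. The difference between the genotypes in the gap of members to others, 0.168 cycles, was 0.685 cycles with means in place of medians and -0.0923 cycles without EC-Dicerflox replicate 3. Members seen in EC-DicerWT aortas only were 2 with a limit of 37 (5.13%, others 4.02%), and 0 to 4 without a single aorta (others 2.91% to 7.54%), where those seen in EC-Dicerflox aortas only were 5 to 9 (others 1.70% to 5.78%). Of the others of the same card, 5% were seen in EC-DicerWT aortas only with a limit of 37. Without a single aorta, 4.62% to 9.30% of them were seen in EC-DicerWT only and 3.10% to 10% in EC-Dicerflox only. The log2 fold change of miR-1937b, -0.022, turned to 0.061 with U6 alone, 0.033 with controls of the same card and 0.0033 with the mean over all miRNAs as the reference (-0.0025 with their median), and lay between -0.30 and 0.26 without a single aorta, above 0 without EC-Dicerflox replicate 1 (0.26) and without EC-DicerWT replicate 3 (0.22). The causes were not tested. Signals near the limit bound what can be said, since 31 of the members' 197 wells with a signal were above a CT of 35. Settings on the genotype differences in detection and CT level and on members seen in 1 genotype were chosen after seeing the data.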
